A study of Mus musculus with 146 samples.

Results

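The Rab GTPase genes were taken as every gene symbol that reads Rab, a number and at most a letter and a digit after it, and 59 of 52605 gene symbols in the data did. All 59 matched a gene of GENCODE M21. By where their proteins are known to act, 16 were placed with the Golgi and the endoplasmic reticulum, 23 with endosomes and related organelles, 12 with secretion and 8 with neither. Each was measured in single germ cells of the ovary of newborn C57/BL6J mice at postnatal day 0.5, an age at which the first follicles form as cysts of germ cells break up. Ovaries of pups of 1 litter (5 ovaries) were dissociated together with no treatment and no engineered allele, cells were picked by size with a mouth pipette, and amplified cDNA that was positive for Foxl2, a gene of pregranulosa cells, was removed before sequencing. Libraries were made by Smart-seq2, which copies polyadenylated RNA along its length and keeps no strand, with ERCC spike-in RNA in each lysate. Since every cell comes from 1 pool and no animal is named for any of them, the cells were treated as 1 sample. The values below are means, ranges and shares of these cells, and no test was made over cells.

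Rab proteins are small GTPases that mark membranes. Loaded with GTP by an exchange factor (GEF) they sit on a membrane and bind effectors such as tethers and motors, a GTPase-activating protein (GAP) switches them off, and GDI then draws them back into the cytosol. Family members divide the traffic among them, from transport between the endoplasmic reticulum and the Golgi, through early, recycling and late endosomes, to the docking of secretory vesicles, and a growing oocyte uses these routes to secrete its zona pellucida and to store cortical granules.

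The 146 libraries did not come from 146 cells. In 7 pairs of libraries, log2 TPM correlated at r = 0.984 to 0.994 over 8851 genes, against 0.771 for the most alike of all other pairs and a median of 0.497, and the median chi-square of a gene's counts in a pair was 0.637 to 1.09, against 92.6 in that other pair. These 14 libraries were read as 7 cells that were each sequenced in duplicate and were counted as their mean, although the labels name no such pairs. Between the libraries of a pair, 171 comparisons of Rab genes with at least 10 TPM gave a median difference of 0.054 to 0.095 on the log2 scale, and 2 (1.17%) differed by over 1.5-fold. Of the distinct cells, 1 had no Ddx4, the germ cell helicase gene also called Vasa, and was left out.

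The cells were sorted into 3 clusters, rebuilt from 20 feature genes of oocyte development, none of which is a Rab gene. Taf4b is not named among the marker genes in the study's account of its clusters and was added here to reach 20. The rebuilt clusters may differ from those of the study and were not compared with them cell by cell. Cluster 1 (19 cells) had little of the follicle factor gene Nobox, with a mean of 34.1 TPM against 312 in cluster 2 (85 cells). Cluster 3 (34 cells) had the zona gene Zp3, at 546 TPM against 13.8 in cluster 2 and 0.0943 in cluster 1. Nobox and Zp3 are among the 20 feature genes, so these differences only describe how the clusters were drawn. Kept libraries held between 4074810 and 26855272 reads assigned to genes (median 9498860), and the Rab genes took 5288 to 62309 of them per cell. Cluster 3 had a median of 14584 genes with a read, against 12055 in cluster 2, and less spike-in, with a median of 6555 TPM against 12232. Germ cell markers summed to at least 1448 TPM in every cell. Markers of pregranulosa cells summed to a median of 0.50 TPM (range 0 to 82.1), 8 of the 9 had a mean below 1 TPM and Foxl2 was at 1 TPM or more in 4 cells, while markers of stroma had a median of 1.05 TPM (range 0 to 873). Over clusters 1, 2 and 3 the stroma medians were 4.35, 1.05 and 0.42 TPM, and the median share of mitochondrial reads was 5.22, 6.20 and 7.83%. Pregranulosa and stroma markers together reached 10 TPM in 49 cells (8, 31 and 10 by cluster), and globin reached 10000 TPM in 11.

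A level is the TPM of a gene, which is scaled to transcript length and to a total of 1000000 per cell. A log2 ratio compares the mean TPM of adjacent clusters after adding 1 TPM to both, the first step being cluster 2 over cluster 1 and the second step cluster 3 over cluster 2. A gene is called higher or lower from a ratio of 1.5-fold on (a log2 ratio of 0.58), and it is called detected in a cell at 0.1 TPM. Intervals of shares are the exact ones of Clopper and Pearson at 95%, and cover no error besides that of counting.

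Rab genes made up 2648 ± 673 TPM per cell (SD over the kept cells, 19, 85 and 34 of the 3 clusters), or 0.265% of the RNA counted. Most of it came from few members. Rab11a, a GTPase of recycling endosomes on chromosome 9 (64715299 to 64737758, minus strand, GRCm38), alone gave 34.6% of all Rab TPM. That share rests on the length that the TPM assigns to it, and was 12.9% of Rab reads scaled to the same total per cell and 13.8% per base of the longest coding transcript. In TPM, the 7 members with a mean of at least 100 TPM gave 68.7%, and the 12 highest gave 79.9%. A further 24 members had means of 10 to 100 TPM, 15 of 1 to 10 TPM and 10 above 0 but under 1 TPM. Rab17, Rab19 and Rab42 were at 0 in every kept cell (exact interval reaching 2.64% of cells), and Rab31 and Rab39b were never detected. The filter at a mean of 1 TPM kept 46 members, with Rab20 (1.05 TPM) and Rab26 (1.03 TPM) just inside it, and Rab40b (0.763 TPM) and Rab39 (0.578 TPM) just outside. Only Rab1a was detected in every cell, 13 members were detected in at least 90% of cells, and 25 had a median of 0. A cell expressed 13 to 42 of the 59 at once.

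**Figure D1:**
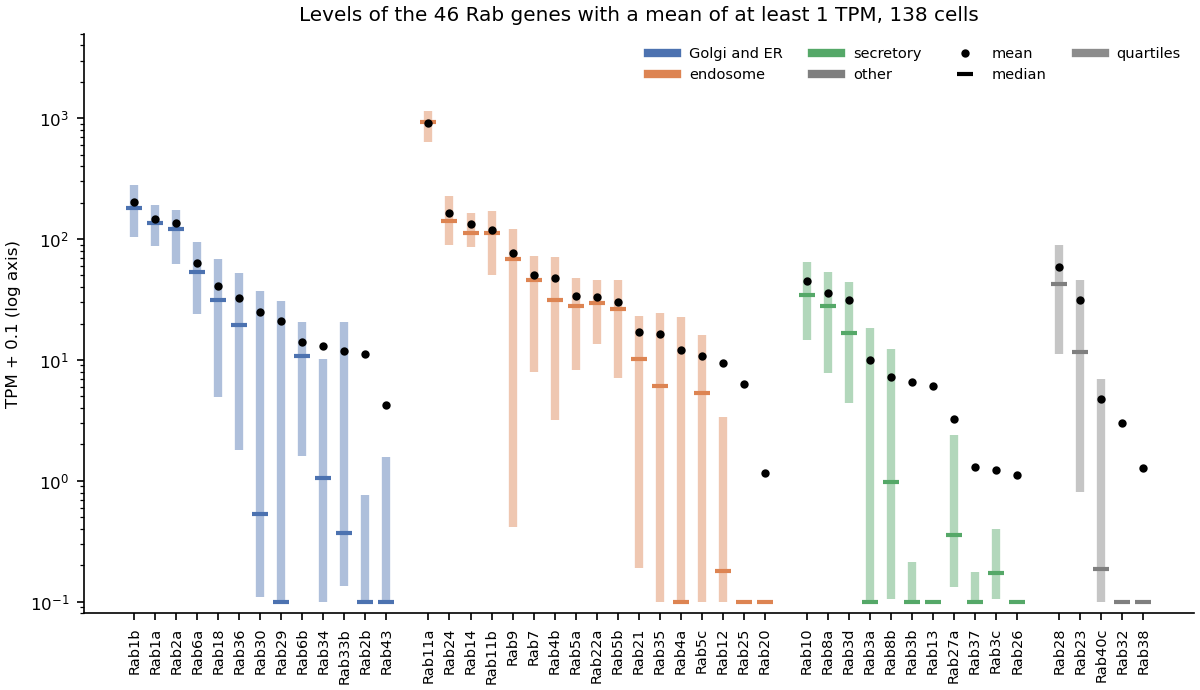
TPM plus 0.1 on a log axis for the 46 Rab genes with a mean of at least 1 TPM, by group and in order of their means; black points are means, dashes medians and bars quartiles over the kept cells. Rab11a, with a mean of 916 TPM, stands above every other member, and the median lies below the mean for every member shown but Rab11a.

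Read against all genes, the family as a whole did not stand out at either step. In the first step 12 of the 46 members were called higher, where 25.0% of 11737 coding genes were, and 8 were called lower, where 21.6% were. In the second step 9 were called higher and 10 lower, against 16.6% and 30.2% of coding genes. The median log2 ratio of the members was -0.018 in the first step (0.0057 over all coding genes) and -0.078 in the second (-0.21 over all coding genes). The groups differed in which way their members lay. In the second step 6 of the 13 Golgi and endoplasmic reticulum members were called lower and 1 higher, with a median of -0.54, whereas 0 of the 17 endosome members were called lower and 4 higher, with a median of 0.051. Secretory members went both ways in the first step, 5 of 11 higher and 4 lower, and in the second step 3 were higher and 2 lower. The summed level of the Golgi and endoplasmic reticulum members averaged 817 ± 267, 764 ± 312 and 572 ± 209 TPM over the clusters in order (SD over 19, 85 and 34 cells), while that of the endosome members stayed at 1710 ± 482, 1675 ± 476 and 1658 ± 529. Scaled to spike-in RNA, a scale taken up further on, the Golgi and endoplasmic reticulum sum was 1072, 896 and 1246, so that its second step turned from lower to higher, and the endosome sum was 2093, 1836 and 3753, higher in cluster 3. On that scale none of the 6 Golgi and endoplasmic reticulum members stayed called lower. As the difference of mean log2(TPM + 1), only Rab34 (-0.73) and Rab36 (-1.38) of them did. Median stroma markers also went down over the clusters, at 4.35, 1.05 and 0.42 TPM, and their part in these levels was not tested.

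**Figure D2:**
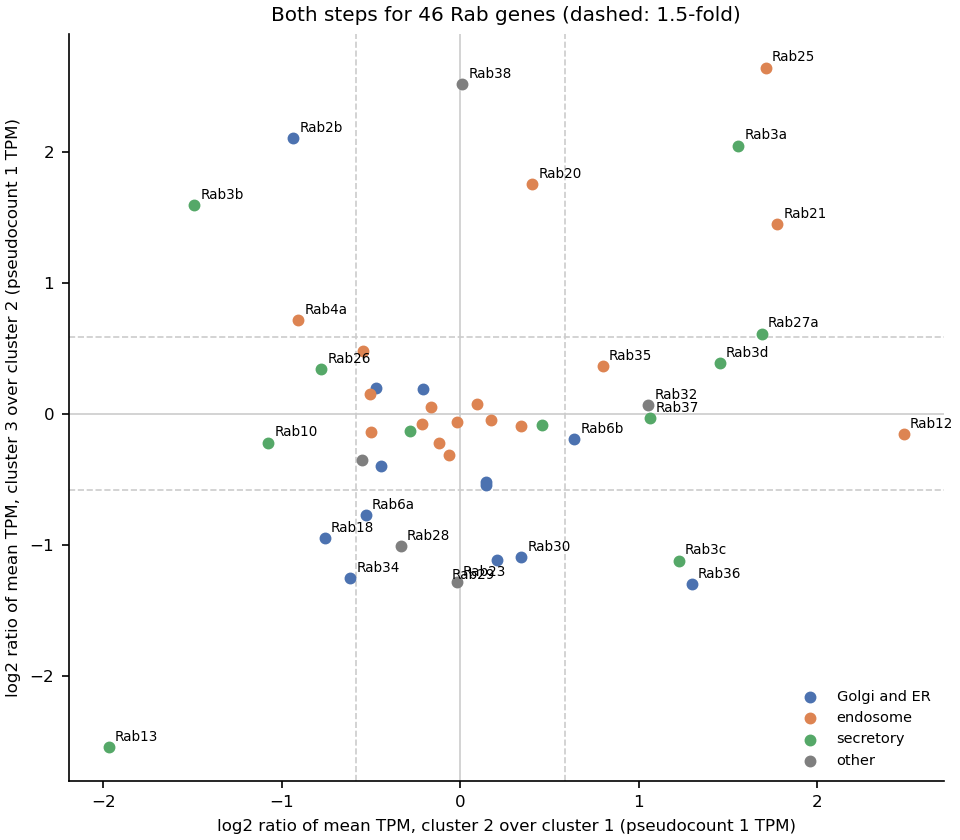
Log2 ratio of mean TPM in the first step (x axis) against the second step (y axis) for 46 Rab genes, coloured by group; dashed lines mark 1.5-fold and named points lie past it in at least 1 step. Rab3a, Rab21, Rab25 and Rab27a lie in the upper right, Rab13, Rab18 and Rab34 in the lower left, and Rab36 in the lower right.

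Past the 1.5-fold line in both steps in the same direction were 4 members that were higher, Rab3a, Rab21, Rab25 and Rab27a, and 3 that were lower, Rab13, Rab18 and Rab34. The share of all coding genes past the line in both steps was not counted, so these counts are no result about the family. Every promoter that the RefSeq table holds for Rab21, Rab25, Rab3a, Rab27a, Rab13 and Rab34 is shown, with none used here for Rab18, because these members share a direction in both steps along the same cells in which the feature genes Figla and Sohlh1, which encode basic helix-loop-helix factors, and Nobox and Lhx8, which encode homeodomain factors, were used to place the clusters. Each run holds 250 bases before to 50 bases after a gene start, 5′ to 3′ on the gene's strand, from RefSeq on GRCm38.p6, and capitals mark matches, on both strands, to CANNTG (the E-box of helix-loop-helix factors), TAATTG (of Nobox) or TGATTG (of Lhx8).
Rab21, chr10:115315542-115315841 (-): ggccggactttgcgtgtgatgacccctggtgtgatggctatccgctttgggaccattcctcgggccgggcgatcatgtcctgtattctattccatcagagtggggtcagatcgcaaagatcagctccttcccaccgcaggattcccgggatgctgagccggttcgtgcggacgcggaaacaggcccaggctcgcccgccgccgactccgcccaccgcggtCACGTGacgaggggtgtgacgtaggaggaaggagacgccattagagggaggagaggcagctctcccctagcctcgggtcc
Rab25, chr3:88548230-88548529 (-): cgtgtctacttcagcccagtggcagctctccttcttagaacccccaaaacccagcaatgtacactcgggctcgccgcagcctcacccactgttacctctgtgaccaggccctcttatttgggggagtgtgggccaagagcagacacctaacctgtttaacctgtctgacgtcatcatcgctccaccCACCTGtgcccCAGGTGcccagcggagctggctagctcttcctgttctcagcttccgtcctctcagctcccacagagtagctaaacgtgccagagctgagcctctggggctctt
Rab3a, chr8:70754453-70754752 (+): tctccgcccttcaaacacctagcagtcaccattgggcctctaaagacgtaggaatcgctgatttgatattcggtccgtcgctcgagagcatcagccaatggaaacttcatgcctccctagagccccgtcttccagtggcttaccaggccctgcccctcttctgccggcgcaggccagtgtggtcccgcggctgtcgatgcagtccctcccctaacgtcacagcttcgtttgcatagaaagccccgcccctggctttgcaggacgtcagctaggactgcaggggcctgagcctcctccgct
Rab3a, chr8:70754852-70755151 (+): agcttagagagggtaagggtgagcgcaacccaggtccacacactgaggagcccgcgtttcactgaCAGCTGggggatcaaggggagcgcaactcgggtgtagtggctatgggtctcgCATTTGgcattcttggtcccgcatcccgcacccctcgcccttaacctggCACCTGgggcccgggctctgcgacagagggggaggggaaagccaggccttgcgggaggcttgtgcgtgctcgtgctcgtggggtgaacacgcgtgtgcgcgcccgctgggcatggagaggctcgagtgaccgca
Rab27a, chr9:73044560-73044859 (+): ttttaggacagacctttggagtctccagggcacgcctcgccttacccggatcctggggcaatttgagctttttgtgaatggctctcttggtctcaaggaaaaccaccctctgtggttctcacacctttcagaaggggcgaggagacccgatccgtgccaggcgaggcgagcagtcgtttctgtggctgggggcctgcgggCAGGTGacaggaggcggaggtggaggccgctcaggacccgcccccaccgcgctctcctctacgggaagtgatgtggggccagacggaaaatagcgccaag
Rab27a, chr9:73063898-73064197 (+): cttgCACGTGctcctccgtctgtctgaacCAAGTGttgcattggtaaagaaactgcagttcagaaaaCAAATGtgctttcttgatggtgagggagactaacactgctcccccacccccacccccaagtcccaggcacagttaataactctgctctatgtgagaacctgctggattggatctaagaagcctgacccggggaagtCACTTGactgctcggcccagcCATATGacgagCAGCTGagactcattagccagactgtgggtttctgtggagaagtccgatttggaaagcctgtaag
Rab13, chr3:90213465-90213764 (+): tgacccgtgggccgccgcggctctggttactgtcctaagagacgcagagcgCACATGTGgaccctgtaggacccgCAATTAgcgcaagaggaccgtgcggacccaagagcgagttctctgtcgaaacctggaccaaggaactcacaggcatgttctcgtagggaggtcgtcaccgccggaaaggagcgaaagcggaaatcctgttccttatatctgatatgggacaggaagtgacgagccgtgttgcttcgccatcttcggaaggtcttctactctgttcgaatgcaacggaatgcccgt
Rab13, chr3:90220534-90220833 (+): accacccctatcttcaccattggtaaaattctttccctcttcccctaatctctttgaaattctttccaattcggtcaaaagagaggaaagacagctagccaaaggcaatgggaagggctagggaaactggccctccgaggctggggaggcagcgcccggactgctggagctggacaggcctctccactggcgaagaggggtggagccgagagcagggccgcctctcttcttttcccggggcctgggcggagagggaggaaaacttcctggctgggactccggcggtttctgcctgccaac
Rab34, chr11:78188177-78188476 (+): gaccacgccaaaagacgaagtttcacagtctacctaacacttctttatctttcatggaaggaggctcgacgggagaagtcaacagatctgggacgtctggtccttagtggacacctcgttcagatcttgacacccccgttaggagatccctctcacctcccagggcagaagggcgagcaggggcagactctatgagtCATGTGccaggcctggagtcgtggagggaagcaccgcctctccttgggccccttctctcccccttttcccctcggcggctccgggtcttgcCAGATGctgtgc
Rab34, chr11:78188498-78188797 (+): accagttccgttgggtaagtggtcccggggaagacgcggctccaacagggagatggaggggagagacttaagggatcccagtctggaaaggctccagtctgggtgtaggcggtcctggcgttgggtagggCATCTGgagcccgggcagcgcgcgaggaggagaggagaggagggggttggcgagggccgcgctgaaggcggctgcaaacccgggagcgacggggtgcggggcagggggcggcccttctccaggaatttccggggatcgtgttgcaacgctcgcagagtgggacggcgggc
Rab21 holds 1 CANNTG match, Rab25 holds 2, the upstream and downstream Rab3a starts hold 0 and 3, and those of Rab27a hold 1 and 6. The Rab13 starts hold 2 (overlapping) and 0, and the Rab34 starts 2 and 1. TGATTG is in none of them, and TAATTG is in the first Rab13 promoter alone, the single match among all Rab promoters. CANNTG is short and common. It was found in 68.3% of 60 promoters of the 48 Rab symbols in the table and in 72.3% of 32851 promoters of all symbols. TAATTG was in 1.67% of the Rab promoters and 8.0% of all, and TGATTG in 15% and 14%. A match is a run of letters, not a bound site.

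Rab21, which acts on early endosomes in the traffic of integrins (chromosome 10, 115287084 to 115315594, minus strand), was higher in each later cluster. Its lowest, median and highest levels were 0, 0.276 and 19.8 TPM in cluster 1, 0, 7.70 and 115.998 TPM in cluster 2, and 0.640, 24.6 and 179 TPM in cluster 3. The ranges overlap, but 2 of 19, 38 of 85 and 30 of 34 cells reached 10 TPM. The log2 ratio was 1.78 in the first step and 1.45 in the second, and it stayed past 1.5-fold with each cell left out in turn (1.64 to 2.17 and 1.27 to 1.59). After each cell was thinned to 1000000 reads, at least 1 Rab21 read was left in 52.6%, 71.8% and 100% of the cells of clusters 1, 2 and 3.

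Rab3a, best known for docking synaptic and other regulated secretory vesicles (chromosome 8, 70754679 to 70758677, plus strand), was near 0 until cluster 3. In cluster 1 it ran from 0 (median 0) to 19.4 TPM, in cluster 2 from 0 (median 0) to 79.1 TPM, and in cluster 3 from 0 to 67.7 TPM with a median of 26.3. Cells with at least 10 TPM were 5.26% (interval 0.133 to 26%), 15.3% (8.4 to 24.7%) and 76.5% (58.8 to 89.3%) of the clusters in order. The means were 1.21, 5.52 and 26 TPM, with log2 ratios of 1.56 and 2.05. Taken as the difference of mean log2(TPM + 1), the first step was 0.54, under the 1.5-fold line, and the second 3.16. In thinned cells the shares with a read were 5.26%, 20.0% and 85.3%.

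Rab25, a relative of Rab11 known mostly from epithelia (chromosome 3, 88542029 to 88548300, minus strand), was at 0 in all 19 cells of cluster 1 (exact interval reaching 17.6% of cells). Cluster 2 had a median of 0 and a highest cell at 165 TPM, the next at 26.7 TPM. In cluster 3 the lowest, median and highest were 0, 10.3 and 120 TPM. Cluster 3 thus held 17 of the 19 cells with at least 10 TPM, and the log2 ratio of the second step was 2.64. Leaving out the highest cell of cluster 2 took its first step from 1.71, a value that depends on the pseudocount because cluster 1 was at 0, to 0.42, and raised the second to 3.93. Without the cells with pregranulosa or stroma markers the first step was also under 1.5-fold. Of the 19 cells with Rab25, 4 had 10 TPM or more of stroma markers and 1 of pregranulosa markers, and the share with a read after thinning was 0, 4.71 and 58.8%.

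Rab27a, which carries secretory lysosomes and melanosomes to the cell edge, stayed low. It averaged 0.245 TPM (highest 1.04) in cluster 1, 3.01 TPM (highest 48.6) in cluster 2 and 5.14 TPM (highest 15.3) in cluster 3, with medians of 0.0628, 0.116 and 3.76. Its log2 ratios were 1.69 and 0.61, and leaving out a single cell moved the second to between 0.54 and 0.82, so that some cells decide that call. Without the 11 cells with globin it was 0.48.

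Cells that had these genes overlapped. Of the 40 cells with at least 10 TPM of Rab3a, 33 also had 10 TPM of Rab21, and of the 19 with Rab25, 18 had Rab21 and 14 had Rab3a. Most cells of cluster 3 had these genes anyway, as 30 of its 34 cells had Rab21 and 26 had Rab3a, 24 of them both. Of the 2 cells of cluster 2 with Rab25, 1 had Rab21 and 0 had Rab3a. The counts are thus not read as overlap beyond a shared cluster. Spearman's rho of Rab3a with Rab21 was 0.48 over all kept cells, 0.28 within cluster 2 and 0.12 within cluster 3, and rho of Rab25 with Rab3a was 0.47 over all and 0.22 within cluster 3. Along component 1 of the feature genes, the first of their principal components, 9 of the 46 members had a rho of at least 0.3 (19.6%, against 12.4% of all coding genes), led by Rab3a at 0.62, Rab21 at 0.60 and Rab25 at 0.51, and 4 were at -0.3 or below (8.70%, against 9.07%), namely Rab18, Rab6a, Rab10 and Rab28. All these points share libraries and depth.

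**Figure D3:**
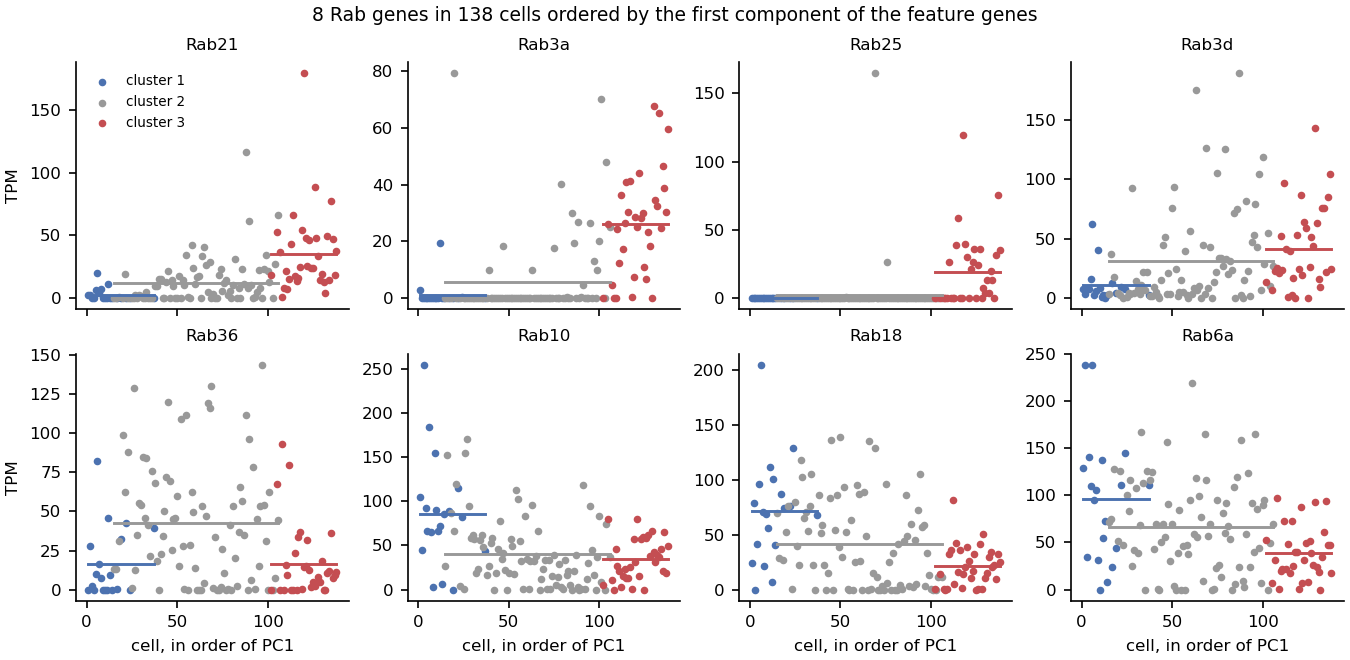
TPM of Rab21, Rab3a, Rab25, Rab3d, Rab36, Rab10, Rab18 and Rab6a in each kept cell (points), placed in order along component 1 of the 20 feature genes and coloured by cluster; lines are cluster means. The cluster means of Rab21, Rab3a and Rab25 are highest at the right, that of Rab36 in the middle, and those of Rab10, Rab18 and Rab6a at the left. Rab3a, Rab25 and Rab36 have cells at 0 in all clusters, and the highest single cells of Rab3a and Rab25 lie in cluster 2.

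Members of the Golgi and the endoplasmic reticulum were led by Rab1b (204 ± 141.7 TPM), Rab1a (147 ± 82.3 TPM) and Rab2a (135.4 ± 99.7 TPM), which carry traffic between both organelles. All passed through the clusters with ratios under 1.5-fold. Rab1b had cluster means of 202, 224 and 156 TPM, Rab1a of 187, 134.6 and 155 TPM, and Rab2a of 134.8, 149 and 102.1 TPM. Their ranges overlapped throughout. The second step of Rab2a was -0.54, and leaving out 1 cell took it to between -0.63 and -0.48, past the line for 3 cells.

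Rab6a, which drives transport from endosomes back to the Golgi and from the Golgi to the cell surface (chromosome 7, 100607410 to 100641268, plus strand), was lower in later clusters. It had lowest, median and highest levels of 0, 105.8 and 238 TPM in cluster 1, 0, 60.1 and 219 TPM in cluster 2, and 0.0378, 33.3 and 96.6 TPM in cluster 3. No cell of cluster 3 reached the median of cluster 1, though all 3 ranges overlap at the low end. The log2 ratios were -0.53 and -0.78, the second of them -0.50 in reads scaled to the same total per cell, -0.56 with Ward clusters and -0.52 as the difference of mean log2(TPM + 1), all under the line. Rab6b, its close paralogue, was much lower and moved otherwise, with means of 9.54, 15.4 and 13.4 TPM and a first step of 0.64. That call rested near the line, as it was 0.49 with Ward clusters, 0.54 per spike-in, 0.55 without the cells with globin and -0.076 with clusters from variable genes, and single cells left out took it to between 0.57 and 0.89.

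Rab18, which acts on lipid droplets and the endoplasmic reticulum, was lower in both steps. From cluster 1 to 3 its medians were 70.6, 33 and 19 TPM and its highest cells 205, 138.8 and 81.3 TPM, with a lowest cell at or near 0 in each. The log2 ratios were -0.76 and -0.95, and both stayed past the line with every single cell left out. The second was not past it as the difference of mean log2(TPM + 1), at -0.44, nor per spike-in, at -0.075.

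Rab36, a little-studied Golgi member (chromosome 10, 75037058 to 75054748, plus strand), was highest in the middle cluster. Its lowest, median and highest levels were 0, 7.43 and 82.2 TPM in cluster 1, 0, 35.2 and 143.8 TPM in cluster 2, and 0, 9.18 and 92.9 TPM in cluster 3. At least 10 TPM was reached in 42.1%, 74.1% and 47.1% of cells. The first step was 1.30 and the second -1.30, and no other member was called higher in the first and lower in the second except Rab3c, whose mean of 1.71 TPM in cluster 2 rested on 4 cells with 10 TPM. With clusters from variable genes the first step of Rab36 was -0.033. Stroma markers were at 10 TPM or more in 30 of the 87 cells with 10 TPM of Rab36, against 8 of the other 51, and their part was not tested.

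Rab34, Rab29 and Rab30 were lower in cluster 3 than in cluster 2. Rab34, known for its part in building cilia, averaged 22.1, 14.1 and 5.32 TPM, and 9 of 19, 21 of 85 and 5 of 34 cells had 10 TPM. Its first step of -0.62 was -0.49, under the line, with Ward clusters, and leaving out 1 cell took it to between -0.94 and -0.34. Of the 35 cells with Rab34, 14 had stroma markers at 10 TPM or more, as did 24 of the other kept cells, a larger group. The median of stroma markers was 7.42 TPM in the cells with Rab34 and 0.479 TPM in the others. The part of stroma markers in the levels of Rab34 was not tested. Rab29, of the trans-Golgi, averaged 21.2, 24.6 and 10.8 TPM with a median near 0 in each cluster and a second step of -0.53, under the line, as the difference of mean log2(TPM + 1), and Rab30, of the Golgi stack, 23.5, 30.0 and 13.5 TPM. The lower mean of Rab30 in cluster 3 went with a median of 0.577 TPM against 0.335 in cluster 2 and with 38.2% against 35.3% of cells at 10 TPM, and the difference of mean log2(TPM + 1) was -0.26, under the line. Rab2b was called lower and then higher, at 11, 5.28 and 26.1 TPM, but 1 cell of cluster 3 held 706 TPM, and without it the second step was 0.048, while the first was -0.34 without the cells with globin. Rab33b (11.9 TPM) and Rab43 (4.11 TPM) were under 1.5-fold in both steps, and Rab33a (0.354 TPM), Rab39 and Rab19 were below the filter.

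Among endosome members, Rab11a, Rab11b, Rab24, Rab14, Rab9, Rab7, Rab22a, Rab5a, Rab5b, Rab5c and Rab4b had TPM ratios under 1.5-fold in both steps. Per spike-in, all of these but Rab24 (0.57) were past the line in the second step, with Rab11a at 1.06. On that scale 52.3% of coding genes were called higher. Rab11a had a lowest, median and highest level of 316, 802 and 1758 TPM in cluster 1, 0.0420, 928 and 2466 TPM in cluster 2, and 11.4, 914 and 2152 TPM in cluster 3. The means of 935, 924 and 887 TPM gave log2 ratios of -0.016 and -0.059, and 98.6% of cells had at least 10 TPM. The effective length that its TPM and reads imply was 491 bases, where the longest coding transcript has 2336, and the part of this in its level was not tested at the level of transcripts. The length deposited for it had a median of 119.8 bases, below its shortest annotated transcript of 397, and deposited lengths were not used. Counted per base of each gene's longest coding transcript, Rab11a came to 419 TPM, still the first of the family, with Rab1b next at 367 TPM. Rab11b, its paralogue, averaged 118.6 ± 85.9 TPM with log2 ratios of 0.34 and -0.093.

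Rab24 (164 ± 108.9 TPM), linked to autophagy, and Rab14 (132.9 ± 86 TPM), between the Golgi and early endosomes, were the next highest. Rab24 had cluster means of 183, 168 and 144.2 TPM and Rab14 of 144.9, 138.8 and 111.3 TPM. Both were in nearly every cell. Rab9, which returns receptors from late endosomes to the Golgi, averaged 96.6, 65.8 and 92.1 TPM, and its medians of 72.1, 53.8 and 97.3 TPM were also lowest in cluster 2. Its ratios of -0.55 and 0.48 lay just under the line, and leaving out 1 cell took the first to between -0.62 and -0.15, past it for 10 cells. The first was also past it with Ward clusters (-0.67), per spike-in (-0.81) and as the difference of mean log2(TPM + 1) (-0.74). With clusters from variable genes it turned to 0.45. The second was past the line in scaled reads (0.59), per spike-in (1.65) and as that difference (1.46). Rab7, the GTPase of late endosomes and lysosomes, was even, at 45.4, 51.3 and 49.7 TPM. Rab22a, of early and recycling endosomes, averaged 45.3, 31.8 and 28.7 TPM with a first step of -0.50.

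The early endosome GTPases Rab5a, Rab5b and Rab5c averaged 33.4, 30.4 and 10.6 TPM, and none passed 1.5-fold in TPM. As the difference of mean log2(TPM + 1), the first steps of Rab5b (-0.81) and Rab5c (-0.74) were past the line. So were the second steps of Rab5c (0.74) and Rab4b (0.73). In mean TPM Rab4b, of fast recycling, was also even at 44.6, 47.5 and 50.1. Rab4a was not, with lowest, median and highest levels of 0, 0.149 and 72.8 TPM in cluster 1, 0, 0 and 71.3 TPM in cluster 2, and 0, 12.3 and 64.5 TPM in cluster 3. Cluster 2 had the smallest share of cells with 10 TPM, 21.2% against 42.1% and 58.8%. The log2 ratios were -0.91 and 0.71, but the first was -0.41 without the 49 cells with pregranulosa or stroma markers, and the second was 0.28 with Ward clusters. Rab35, of recycling to the plasma membrane, went from a mean of 8.85 TPM (median 0) to 16.1 TPM (median 0.831) and 21 TPM (median 19.6). Its first step was 0.80, and 0.30 without those cells. The second was 0.36, and 1.47 as the difference of mean log2(TPM + 1), past the line.

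Rab12, which sends receptors to lysosomes, had the largest ratio of the first step, 2.48, and it rested on few cells. It averaged 1.15 TPM in cluster 1, where 1 cell had 10 TPM, and 11 TPM in cluster 2, where 18 of 85 had, with medians of 0 and 0.0741. In clusters from variable genes its ratio was -0.49, and with the cell that lacked Ddx4 kept it was 0.17. Rab20, of phagosomes, was at 0 in cluster 1, averaged 0.322 TPM in cluster 2 and 3.46 TPM in cluster 3, and 15 of its 21 detections lay in cluster 3. Rab15, Rab17, Rab31, Rab39b, Rab7b and Rab9b averaged from 0 to 0.202 TPM.

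Secretory members were lower as a group, summing to 148 ± 89 TPM per cell. Rab10, which delivers vesicles to the plasma membrane (chromosome 12, 3247428 to 3309969, minus strand), was highest in cluster 1. Its lowest, median and highest levels were 0.0679, 82.4 and 254 TPM there, 0, 32.3 and 170 TPM in cluster 2, and 0, 31.7 and 80.4 TPM in cluster 3. The log2 ratios were -1.08 and -0.22, and the first stayed past the line with each cell left out and under the 12 other settings tried at the 1.5-fold line. The antisense gene Rab10os averaged 43.6, 43.7 and 22.9 TPM, and without strand its reads and those of Rab10 cannot be told apart where they overlap.

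Rab3d, of secretory granules (chromosome 9, 21907491 to 21918192, minus strand), was the main Rab3 gene. It had lowest, median and highest levels of 0.0409, 7.66 and 62.4 TPM in cluster 1, 0, 15.2 and 189 TPM in cluster 2, and 0.204, 25.9 and 143.2 TPM in cluster 3, with means of 10.8, 31.4 and 41.5 TPM. The first step was 1.45 and the second 0.39. As the difference of mean log2(TPM + 1) the second was 0.85, past the line. Cells with at least 10 TPM were 21.1%, 56.5% and 82.4%. Rab3b averaged 11, 3.28 and 11.9 TPM with log2 ratios of -1.49 and 1.60, but 4, 7 and 10 cells held 10 TPM, and the second step was 0.076 without the 49 cells with pregranulosa or stroma markers. With clusters from variable genes the first step of Rab3b turned to 0.26. Stroma markers were at 10 TPM or more in 5 of its 21 high cells and pregranulosa markers in 1.

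Rab8a, of transport to the surface and cilia, averaged 27.3, 37.9 and 35.7 TPM and Rab8b 8.79, 7.06 and 6.37 TPM, all under 1.5-fold. Rab13, of the delivery of junction proteins, averaged 21.8 TPM in cluster 1 (median 0, highest 210), 4.83 TPM in cluster 2 (median 0, highest 101.7) and was at 0 in all 34 cells of cluster 3, for which the exact interval reaches 10.3% of cells. Its second step was -2.54, a value that depends on the pseudocount because cluster 3 was at 0 (-5.62 with 0.1 TPM), and -0.55 as the difference of mean log2(TPM + 1), under the line. Cells with 10 TPM of it were 6 of 19 and 8 of 85 in the first and second clusters. Of these 14 cells 2 had stroma markers at 10 TPM. Rab37 (1.21 TPM), Rab26 (1.03 TPM) and Rab3c (1.14 TPM) had 2, 4 and 4 cells with 10 TPM. Without 1 cell the first step of Rab37 was 0.039 and that of Rab26 was 0.71 rather than -0.78.

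Of the others, Rab28 (58.5 ± 68.2 TPM) and Rab23 (31.5 ± 47.9 TPM), both linked to cilia, were called lower in the second step. Rab28 went from a median of 46.5 TPM (lowest 0, highest 581) in cluster 2 to 28.9 TPM (0 to 174) in cluster 3, and 80% and 61.8% of cells had 10 TPM. Rab23 went from a mean of 36.9 to 14.6 TPM, though the medians of 9.41 and 7.95 TPM were close and 49.4% and 50.0% of cells had 10 TPM, with a difference of mean log2(TPM + 1) of -0.39, under the line. Rab32 averaged 1.01, 3.17 and 3.37 TPM. Rab38, its partner in melanosome traffic, was at 0 in cluster 1 and averaged 0.0079 TPM in cluster 2 and 4.79 TPM in cluster 3, where 4 of 34 cells had 10 TPM (interval 3.30 to 27.5%). All 4 also had 10 TPM of Rab25. Rab40c averaged 4.63 TPM, and Rab40b, Rab42 and Rab44 were below 1 TPM.

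Where genes share a number, 31 of the members form 14 subfamilies, and most had a leading paralogue. Rab11a gave 88.5% of the Rab11 TPM, or 71.6% of its reads scaled to the same total per cell, and more TPM than Rab11b in all but 3 cells. Rab2a gave 92.4% of Rab2, Rab8a 83.4% of Rab8, Rab6a 81.9% of Rab6 and Rab4b 80.1% of Rab4. Rab7b gave 0.402% of Rab7 and Rab9b 0.250% of Rab9. Rab1 and Rab5 were shared more evenly, with 58.1% from Rab1b and 44.9%, 40.8% and 14.2% from Rab5a, Rab5b and Rab5c. In single cells the lead changed hands. Among the cells with at least 10 TPM of Rab5, Rab5a gave most of it in 55, Rab5b in 49 and Rab5c in 7. In the Rab3 family the shares moved between clusters, as Rab3b had 47.4% and Rab3d 46.7% of it in cluster 1, Rab3d 74.9% in cluster 2, and Rab3d 52.1% and Rab3a 32.6% in cluster 3. The share of Rab3b in cluster 1 rested on 4 of 19 cells with 10 TPM, the highest at 108.2 TPM. In reads scaled to the same total per cell Rab3d led in every cluster, with 74.7%, 91.2% and 77.4%.

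**Figure D4:**
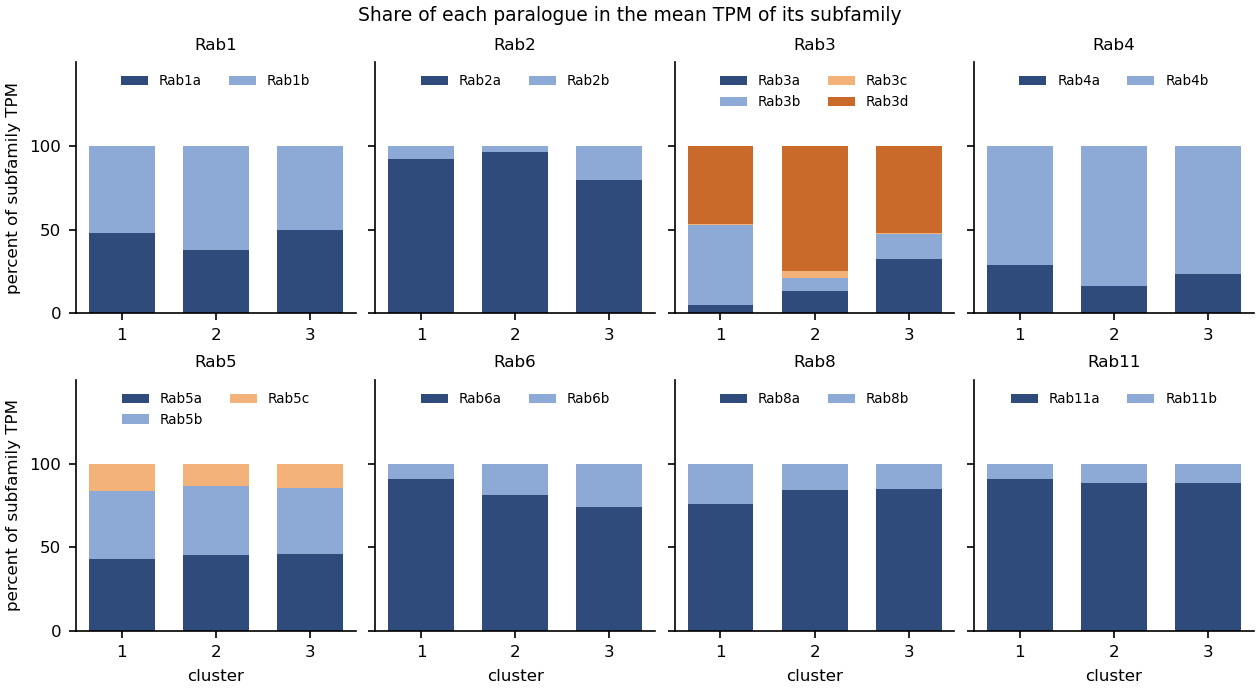
Share of each paralogue in the mean TPM of its subfamily (percent, bars from 0) in clusters 1, 2 and 3, for 8 subfamilies. Rab2, Rab8 and Rab11 keep a single leading gene in every cluster, while in Rab3 the share of Rab3a goes from 5.23% to 13.2% and 32.6%.

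The genes that run the Rab cycle were read from a list chosen by role, which named 8 genes for prenylation and extraction from membranes, 33 GEF, 31 GAP and 44 effector genes. Of those past the filter of 1 TPM, 18 were called higher in the first step (17.8%, against 25.0% of all coding genes) and 24 lower (23.8%, against 21.6%). In the second step 11 were higher (10.9%, against 16.6%) and 33 lower (32.7%, against 30.2%). Of 34 effectors 7 were higher and 15 lower in the second step, while of the 8 genes for prenylation and extraction 0 were higher and 1 was lower. Genes of the list that act with Rab3 lay on both sides. Rims1, a Rab3 effector of the secretory site, averaged 1.53, 26.1 and 41.2 TPM, with a first step of 3.42. Rph3al, another Rab3 effector, averaged 1.25, 8.25 and 26.3 TPM, and Rab3il1, an exchange factor for Rab3a, 2.69, 5.44 and 25.6 TPM, with second steps of 1.56 and 2.05. Rims2, a Rab3 effector like Rims1, was lower in both steps (-1.13 and -1.004). Named after their values were seen, Rab3gap1, a subunit of the GAP of Rab3, had steps of -0.63 and 0.34, and Rab3gap2, the other subunit, of 0.057 and -1.17. Madd, an exchange factor for Rab3, had steps of -0.45 and -1.15. Rab3ip, a GEF gene for which the list gives no Rab partner, had steps of 0.24 and -0.69. Per spike-in TPM, a scale described below, the second steps of Rims2 (-0.43), Rab3gap2 (-0.24), Madd (-0.31) and Rab3ip (0.17) were under the line. Those of Rims1 (1.64), Rph3al (2.29), Rab3il1 (2.76) and Rab3gap1 (0.90) were past it.

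Myo5b, the motor that binds Rab11 and Rab25, had medians of 0, 0.0425 and 31.9 TPM and a second step of 1.85. Rab11fip4, a Rab11 effector, averaged 1.74, 14.3 and 17 TPM (first step 2.48) and Rab11fip2 3.0, 10.7 and 8.27 TPM (1.55). Ankrd27, an exchange factor for Rab21, averaged 24.7, 21.3 and 50.5 TPM, and Optn, a Rab8 effector, 15.9, 5.47 and 20.3 TPM, with second steps of 1.21 and 1.72. The GAP genes Tbc1d8 and Tbc1d13 had first steps of 2.28 and 2.40, the latter with a median of 0.225 TPM in cluster 2 and a single cell at 470 TPM.

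Other genes of the machinery were lower in TPM. In the second step Golga2, the Golgi matrix tether that binds Rab1, went from 18.9 to 6.82 TPM (-1.35), Ocrl, a lipid phosphatase bound by many Rabs, from 20.1 to 7.79 TPM (-1.26), Micall1, an effector at recycling endosomes, from 20.9 to 4.47 TPM (-2.00), Exoc6b, an exocyst subunit, from 12.1 to 3.92 TPM (-1.41) and Tbc1d13 from 19.7 to 7.54 TPM (-1.28). The mean of Tbc1d13 in cluster 2 includes the cell at 470 TPM, and its median went from 0.225 to 1.41 TPM, with a difference of mean log2(TPM + 1) of -0.018. The median of Micall1 was 0.121 TPM in cluster 2, with a highest cell at 263 TPM, and 0.133 TPM in cluster 3. Its difference of mean log2(TPM + 1) was -0.83. Per spike-in TPM, the scale described next, Micall1 stayed past the line (-1.18), whereas Golga2 (-0.50), Ocrl (-0.42), Exoc6b (-0.35) and Tbc1d13 (-0.54) were under it. In the first step Bicd1, the dynein adaptor for Rab6, had a log2 ratio of -2.15 (21.4 to 4.04 TPM), and the exchange factors Dennd2c and Dennd5b ratios of -1.52 and -1.19. Optn had a first step of -1.39.

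The second step depends on the scale, since cells of cluster 3 held less spike-in. TPM divides the reads of a cell among its genes, whereas TPM per spike-in TPM follows RNA per cell as far as each lysate received the same spike-in, and this scale moved the median of all coding genes in the second step by 0.84, from -0.21 to 0.63 on the log2 scale. Per spike-in, 30 of the 46 members were called higher, against 52.3% of coding genes, and 2 lower, Rab13 and Rab3c, against 8.95%. Of the tested genes of the Rab cycle, 46 (45.5%) were higher and 7 (6.93%) lower on that scale, so that their balance turned too. Relative to the median of all coding genes, 41 of the 46 members lay on the same side of it on both scales in the second step, though their order changed. Rab21 stood 1.66 above it in TPM and 1.77 per spike-in, Rab3a 2.26 and 2.48, and Rab25 2.86 and 2.53. Rab38 (2.73 and 2.998) and Rab3b (1.81 and 2.54) passed Rab25 per spike-in, and Rab2b went from 2.32 to 1.496 above the median. Rab34 lay 1.04 below it in TPM and 0.38 per spike-in, and Rab3c 0.91 and 1.54. Rab36 stood 1.09 below it and 1.18, Rab18 0.74 and 0.71, and Rab6a 0.56 and 0.63, so that the spike-in level of Rab6a itself was even (log2 ratio 0.0058). Summed over the family, the level scaled to spike-in was 3551, 3013 and 5531 in clusters 1, 2 and 3, where plain TPM gave 2828, 2686 and 2452.

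**Figure D5:**
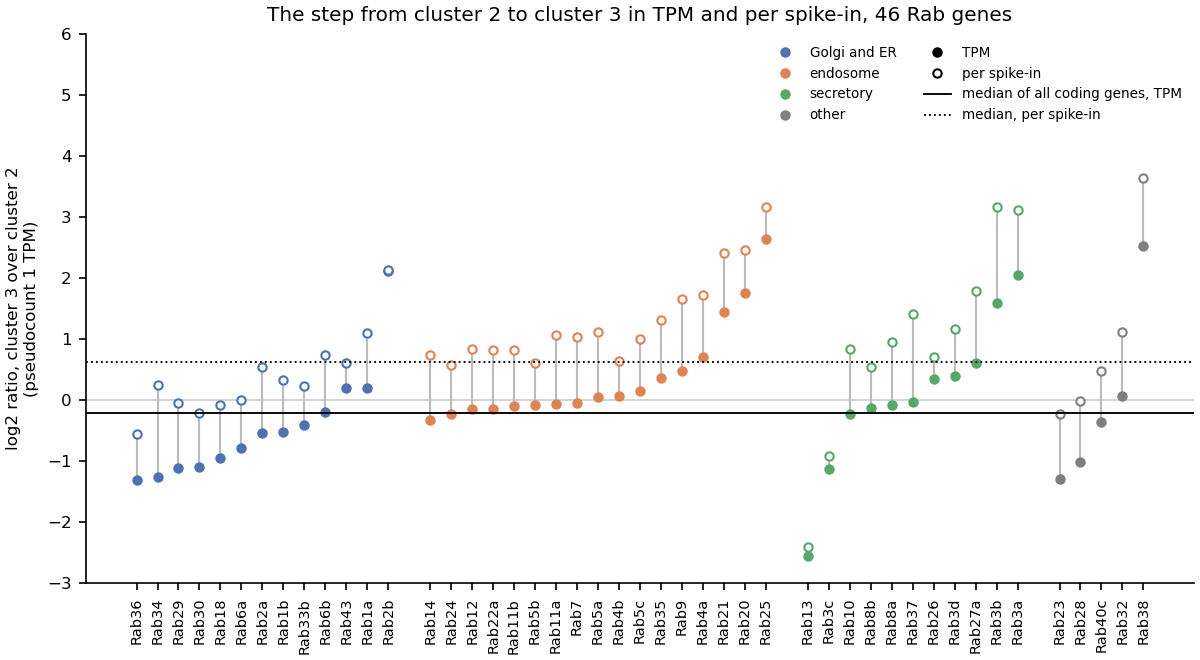
Log2 ratio of cluster 3 over cluster 2 for 46 Rab genes, in TPM (filled points) and in TPM per spike-in TPM (open points), by group; black lines are the medians of all coding genes on each scale. The open points lie above the filled ones for all 46 members, and Golgi and endoplasmic reticulum members have the lowest median of the groups on both scales (-0.54 and 0.25).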

How the data were processed

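Per the labels and the methods of the study, reads of each library were assigned by the authors with Salmon and its option for sequence bias to mm10 with 92 ERCC spike-in sequences added. The authors deposited TPM per gene symbol, scaled to 1000000 per library with mitochondrial genes and spike-ins included. They also deposited estimated counts, which need not be whole because Salmon splits reads shared by similar transcripts. Pseudogene copies took little, with Rab11b-ps2 at a mean of 0.564 TPM. The release of the gene models is not given in the sources used here, so symbols were matched to GENCODE M21.

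TPM of the 7 repeat pairs were averaged after clustering, a choice made after the data were seen. For the clusters, Seurat 5.3.0 under R 4.3.3 was run on 20 feature genes, with 10 components, 20 neighbours and a resolution of 0.2, the lowest from 0.1 in steps of 0.05 that gave 3 clusters, because the cluster of each cell was not used here. Means, ratios and shares come from Python 3.11.15 (NumPy 2.4.6, SciPy 1.17.1, pandas 2.3.3), and the calculation was tested on simulated data. Thinning drew 1000000 reads per cell without replacement. The members, gene lists and rules were chosen with earlier results of these data known. Named with values are the 12 highest members, those past 1.5-fold with a mean of 10 TPM and detection in 50% of the cells of the higher cluster, paralogues of subfamilies above 50 TPM, the members beside the filter, and the 5 largest ratios of the machinery per direction and step. Members outside this rule are named where counts of members are listed. Every p-value was left out, as cells are not replicates.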

Additional observations from a re-analysis of the deposited data

Results flagged for a closer look

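The cell left out for lack of Ddx4 still held Rab reads. In data outside the comparisons, its library gave 1282 estimated reads on Rab genes, at 759.9 TPM in all, with 25 members detected. Rab11a, the highest member elsewhere, was at 0 TPM in it, and the highest were Rab23 at 178 TPM, Rab12 at 169 TPM and Rab3b at 162 TPM. Its germ cell markers summed to 0.880 TPM, its pregranulosa markers to 88.5 TPM and its stroma markers to 249 TPM, at 1408460 reads in all. It is a single library with no replicate, and its cell type was not tested.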

How the results depend on the processing

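Counts of members past 1.5-fold moved with the scale and with the clusters. In the first step, 12 were higher, and 7 were with clusters from 1982 variable genes (61, 42 and 35 cells, 91 of them in the same cluster as before) or by the difference of mean log2(TPM + 1). The 8 lower were 15 per spike-in, 17 by the mean log2 and 3 at 2-fold. The median of all coding genes moved down as well, from 0.0057 to -0.19 per spike-in and -0.14 by the mean log2. Their shares called in this step were not counted on these scales, so the member counts are not read as particular to Rab genes. In the second step the median of all coding genes moved up, from -0.21 to 0.63 per spike-in and 0.13 by the mean log2. Shares of coding genes called by the mean log2 were not counted in the second step either. Member counts by the mean log2 are thus not read as particular to Rab genes there. The 9 members higher in the second step were 30 per spike-in and 14 by the mean log2, and the 10 lower were 2 and 3. With each cell left out in turn these counts ran from 11 to 13, 7 to 10, 8 to 10 and 10 to 12. With variable-gene clusters the first step was -0.49 for Rab12, 0.26 for Rab3b, -1.18 for Rab25, -0.028 for Rab32, -0.96 for Rab3c, -0.033 for Rab36 and -0.076 for Rab6b, all turned in sign. Rab9, under the line in the main setting, also turned, from -0.55 to 0.45. Leaving out 1 cell moved Rab26 between -1.06 and 0.71 in the first step, and the spike-in scale took Rab34 to 0.25 and Rab6a to 0.0058 in the second. The cause was not tested. Rab21, Rab10, Rab18, Rab13, Rab27a and Rab3d kept their first step, and Rab21, Rab3a, Rab25, Rab38, Rab20 and Rab2b their second, under the 12 settings at the 1.5-fold line that left out no single cell. Of these, Rab2b lost it without 1 cell, and the first step of Rab18 (-0.76) is under a 2-fold line. Choices added after seeing the data moved the counts less. Counting each library as a cell gave 12, 9, 9 and 10, leaving out 11 cells with globin 11, 7, 8 and 11, and leaving out 49 with pregranulosa or stroma markers 14, 11, 10 and 10. Depth limits members with few reads, since a level of 0 in a cell does not show that the gene is silent. No paired analysis was possible because the labels give no groups and no replicate numbers.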

Other observations

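Rank correlations between Rab genes were weak. Over the 85 cells of cluster 2, the median Spearman's rho of 465 pairs among the 31 members with a mean of at least 10 TPM was 0.059, and that of all pairs of 7430 coding genes at that level was 0.047, a difference that was not tested. The pairs ran from -0.28 (Rab36 with Rab5a) to 0.43 (Rab18 with Rab11b), all within libraries that share depth. Between the duplicate libraries of the 7 cells sequenced again, 2 members differed by far more than the rest, Rab33b by 3.46 and Rab3c by 3.91 on the log2 scale.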
